A study of Rattus with 12 samples.

Results

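Slc17a7, Slc17a6, Gad1, Gad2, Slc32a1, Dlx1, Pvalb, Calb2 and Reln are 9 genes by which glutamatergic and GABAergic neurons and several classes of interneuron are told apart, and they were followed in rat neuron and glial cultures exposed to fentanyl, a synthetic agonist of the mu opioid receptor. The genes were chosen by symbol, and 9 of 9 were found among the 17337 genes of the count table and passed the filter on low counts, with 12271 genes tested in all. The cultures combined Sprague Dawley rat cortical neurons and astrocytes from one supplier (Lonza) with oligodendrocyte precursor cells (OPCs) from another (ScienCell). Fentanyl was given at 24 to 26 days in vitro for 4 days, and RNA was sequenced from 12 cultures in 3 conditions of 4 cultures each, which were untreated (0 µM), low dose (0.01 µM) and high dose (10 µM). Apart from the dose, the labels give the same cells, strain and exposure time for all cultures. The cells were purchased primary cells seeded together in wells, and markers of cell types that were not seeded, such as microglia and fibroblasts, were also counted. The untreated cultures carry the letters A, G, M and P, the low dose cultures B, H, N and Q, and the high dose cultures C, I, O and R. Letters that follow each other are called a letter set here, from A-B-C and G-H-I to M-N-O and P-Q-R, although no source used here says what the letters stand for.

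A glutamatergic neuron loads glutamate into synaptic vesicles through a vesicular glutamate transporter. Slc17a7 encodes VGLUT1, the form that predominates in neurons of the mature cortex and hippocampus, and Slc17a6 encodes VGLUT2, which predominates in thalamus and brainstem and is also found in immature cortical neurons. A GABAergic neuron makes GABA from glutamate with the glutamate decarboxylases GAD67 (Gad1) and GAD65 (Gad2) and loads it into vesicles through VGAT (Slc32a1). Dlx1 encodes a homeobox transcription factor of interneurons derived from the ganglionic eminences. The calcium-binding proteins parvalbumin (Pvalb) and calretinin (Calb2) and the secreted glycoprotein reelin (Reln) mark partly overlapping classes of interneuron, and reelin is also the product of Cajal-Retzius cells, the early neurons of the cortical surface.

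The total count per culture was between 12059872 and 17023909 in untreated cultures, 12907388 and 16512387 at the low dose, and 15102785 and 24813893 at the high dose. Levels are given as CPM, counts per 1000000 counts of a culture, scaled by TMM (the trimmed mean of M values, a scaling of edgeR). CPM are not corrected for transcript length, so a gene is compared with itself across cultures and not with another gene. Culture G stood apart from the other 11 cultures, with few neuron transcripts for a culture labelled as holding cortical neurons. The mean log2(CPM + 1) of 14 pan-neuronal genes, which hold none of the 9 genes, was 4.69 in G and between 7.72 and 8.21 in the other cultures. In the same culture the score of 5 fibroblast genes was 7.86, against 6.88 in low dose culture N and 2.71 to 4.73 in the others. High fibroblast levels were not particular to G, since the summed level of the fibroblast list was 1750 CPM in G and 2890 CPM in N. The pan-neuronal score of N was 7.81. No source used here says what sets G apart, and whether its label is right was not tested. Outside G, the cortical transcription factor Tbr1 (12.2 to 22.2 CPM) was present in every culture, while Gbx2 of thalamic neurons had 16 counts and Isl1 of striatal neurons 1 count at most. Since G is 1 of 4 untreated cultures, the main values that rest on the untreated condition are given with and without it. Where a level is lower in a bulk culture, fewer cells of a type and less RNA per cell cannot be told apart. The labels do not say whether the 4 cultures of a dose came from separate preparations of cells, so that p-values measure the spread between these cultures only.

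All 5 genes of glutamate and GABA transmission were low in culture G, and Reln was high. Slc17a7 was at 15.5 CPM in G and between 646 and 1270 CPM in the other 11 cultures, whose median was 55.8 times the level in G. Slc32a1 had 0.649 CPM there, from 10 counts, and 12.3 to 29.4 CPM elsewhere, a median 25.4 times higher. These were the transporter genes with the widest gaps, and the synthesis genes Gad1 and Gad2 followed with medians 10.0 and 5.68 times the level in G. Slc17a6 was 13.6 times and Dlx1 6.88 times higher in the median of the other cultures. Pvalb, at 10.4 CPM in G, lay just below culture A (10.5 CPM), and Calb2 in G (2.34 CPM) lay within the range of the others (1.86 to 3.93 CPM). Reln went the other way, with 443 CPM in G and 11.6 to 150 CPM in the other cultures, so that G was 7.71 times their median. The genes of the GABAergic list went in both directions in G, and some lay within the range of the other cultures. Npy, the neuropeptide of a class of interneurons, was high in G (261 CPM against 9.48 to 53.2 CPM), as was Calb1 (56.7 CPM against 6.45 to 21.0 CPM). Lamp5 (0.584 CPM against 18.7 to 214 CPM) and Cck (0.584 CPM against 40.8 to 97.0 CPM) were low. Vip had no count in G, where 3 counts were taken as the floor of detection, and 1.24 to 22.0 CPM elsewhere.

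**Figure D1:**
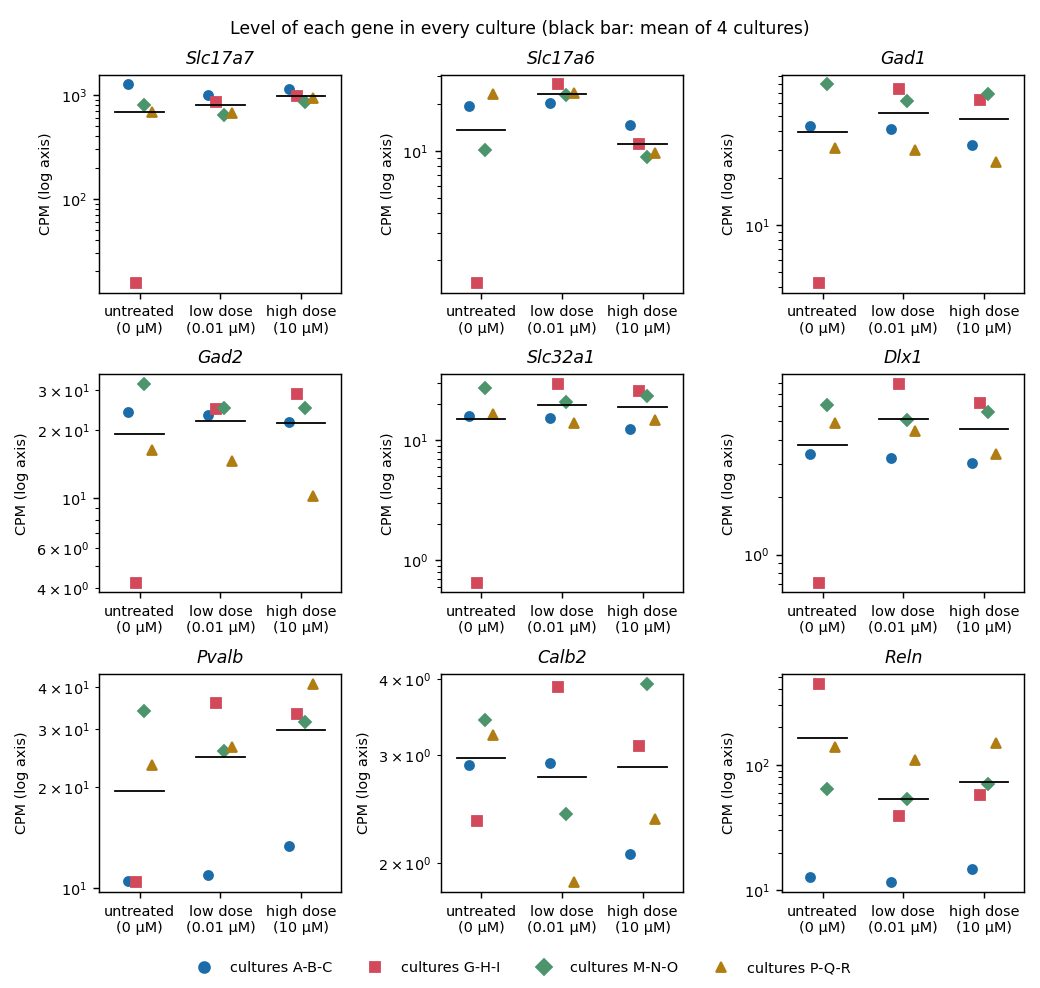
Level of each of the 9 genes in CPM (log axis) in every culture at 0, 0.01 and 10 µM fentanyl, with one point per culture, a symbol per letter set and a black bar at the mean of 4 cultures. Untreated culture G (square, left of each panel) is lowest for the transporter and GABA synthesis genes and for Dlx1 and highest for Reln (443 CPM), and the 4 high dose cultures of Slc17a6 (9.09 to 14.7 CPM) sit below the 4 low dose cultures (20.2 to 26.6 CPM).

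The largest difference between doses among the 9 genes, relative to its error, was in Slc17a6, which was lower at the high than at the low dose. In low dose cultures Slc17a6 was at 20.2 CPM in B, 26.6 CPM in H, 22.8 CPM in N and 23.5 CPM in Q. High dose cultures had 14.7 CPM in C, 11.1 CPM in I, 9.09 CPM in O and 9.63 CPM in R. The highest culture of the high dose thus lay below the lowest culture of the low dose, and the means were 11.1 ± 2.52 and 23.3 ± 2.63 CPM (SD, n = 4 each). Untreated cultures were spread over both ranges, with 19.4 CPM in A, 1.43 CPM in G, 10.2 CPM in M and 23.1 CPM in P. Cultures A and P lay near the low dose and M within the high dose. The mean of the untreated condition was 13.5 ± 9.72 CPM (SD, n = 4), or 17.6 ± 6.63 CPM in the 3 cultures without G, so that the untreated level did not differ from either dose beyond its spread. These values rest on 262 to 430 counts per culture at the low dose and 141 to 248 at the high dose, and on 22 to 328 in untreated cultures, where G had the 22.

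In the fit of all 12271 genes, the log2 fold change of Slc17a6 in high dose vs. low dose cultures was -1.09 (SE 0.27), which is 0.471 of the low dose level. The unadjusted p was 0.00216, and 5 genes of the table, Slc17a6 included, had a p as small. Adjusted by Benjamini-Hochberg over all genes tested, the p was 1 (edgeR, quasi-likelihood test), and Slc17a6 was not called, a call being an adjusted p below 0.05 together with a change of more than 0.5 on the log2 scale. Without a factor of unwanted variation the unadjusted p was 0.0888 (edgeR), at a log2 fold change of -1.06. Within the letter sets, log2(CPM + 1) of Slc17a6 was lower at the high dose by a difference of -0.43 between C and B, -1.19 between I and H, -1.24 between O and N and -1.21 between R and Q. Culture G takes no part in these 4 differences. Of all genes tested, 1.17% had an unadjusted p under 0.05 in this comparison, 1.19% had CPM of the 2 doses that did not overlap, and 11.1% were lower in all 4 letter sets.

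The level of Slc17a6 was also taken relative to the 14 pan-neuronal genes, as log2(CPM + 1) minus their mean. On this scale Slc17a6 was at -3.71 to -3.10 in low dose and -4.72 to -4.16 in high dose cultures, again without overlap. The difference of the means was -1.15, with an exact two-sided permutation p of 0.0286, the smallest that 4 against 4 cultures allow. Adjusted over all genes tested, this exact permutation p was 0.972, and 2.53% of all genes tested did not overlap between the doses on this scale. The untreated cultures were at -3.73 ± 0.60 (SD, n = 4), or -3.84 ± 0.69 in the 3 cultures without G, and overlapped both doses. Culture G, at -3.42, lay between A and P, unlike its CPM. With 1.43 CPM in G, this position depends in part on the offset of 1. The difference between high dose and untreated cultures was -0.76 (exact two-sided permutation p = 0.0571, adjusted over all genes 0.663).

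**Figure D2:**
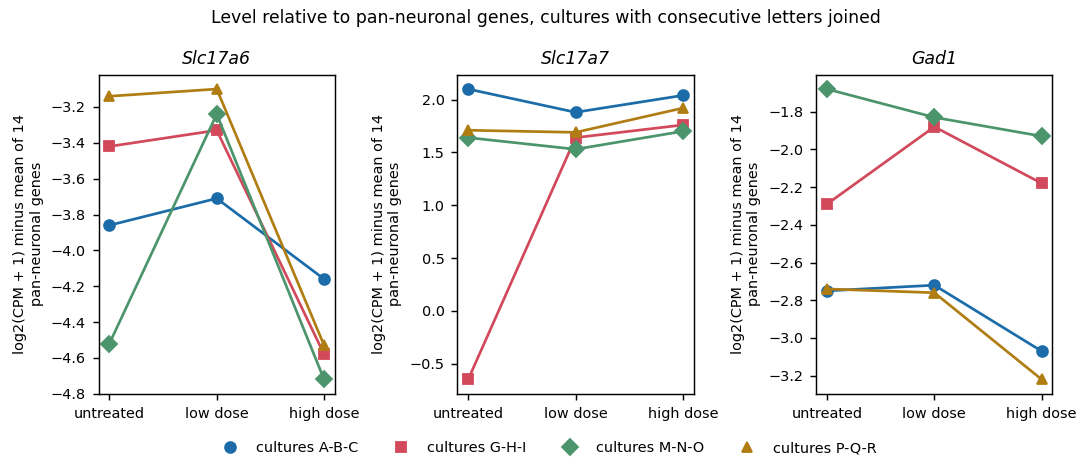
Level of Slc17a6, Slc17a7 and Gad1 relative to the 14 pan-neuronal genes (log2 scale) in untreated, low dose and high dose cultures, one point per culture and lines joining the cultures of a letter set. Every line of Slc17a6 goes down from low to high dose (-3.71 to -3.10 against -4.72 to -4.16), while for Slc17a7 culture G alone (-0.65) lies far below the other 11 cultures.

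Markers of other cells were compared between the same low and high dose cultures. The pan-neuronal score was 7.72 to 8.12 at the low and 7.94 to 8.18 at the high dose, and 11 of 14 pan-neuronal genes had a log2 fold change above 0, with a median of 0.15. The pan-neuronal median and Slc17a6 thus had opposite signs, but Gap43, a protein of growing axons and the 1 pan-neuronal gene with an unadjusted p under 0.05, had the sign of Slc17a6 (-0.37, SE 0.15, unadjusted p = 0.0298, edgeR). For neurons of the thalamus, a region known for Slc17a6, 4 markers were counted and 3 of them tested. The summed level of the 4 markers was 26.8 to 50.1 CPM at the low and 30.6 to 55.7 CPM at the high dose. Among them, Ntng1, the gene of an axon guidance protein, had a log2 fold change of 0.50 (SE 0.14, unadjusted p = 0.00599, edgeR), opposite in sign to Slc17a6. Of the 6 striatal markers tested, 1 had an unadjusted p under 0.05, Adora2a, an adenosine receptor, with the sign of Slc17a6 (-0.71, SE 0.30, unadjusted p = 0.0392, edgeR). All 9 of 9 astrocyte markers had log2 fold changes below 0 in high dose vs. low dose, with a median of -0.24, and their summed levels were 3320 to 11900 CPM at the low and 2210 to 8350 CPM at the high dose. All 5 of 5 fibroblast markers tested were below 0 as well, with a median of -1.53. The summed levels of the 6 fibroblast markers counted were 75.1 to 2890 CPM at the low and 63.4 to 275 CPM at the high dose. The high fibroblast sum belonged to culture N, and without N the log2 fold change of Slc17a6 was -0.88 (SE 0.22). The part of the astrocyte and fibroblast markers and of the greater depth of the high dose libraries in the Slc17a6 difference was not tested.

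Slc17a7, the other vesicular glutamate transporter, was slightly higher at the high dose, within its error in the fit of all cultures. The low dose cultures had 1010 CPM in B, 865 CPM in H, 646 CPM in N and 680 CPM in Q. The high dose cultures had 1150 CPM in C, 978 CPM in I, 860 CPM in O and 933 CPM in R. The doses overlapped, because B lay above I, O and R, but each high dose culture lay above the low dose culture of its letter set, by 0.19, 0.18, 0.41 and 0.46 on the log2 scale in the order of the sets. Of all genes tested, 11.7% were higher in all 4 letter sets. The log2 fold change was 0.31 (SE 0.37, unadjusted p = 0.420, edgeR), and relative to the pan-neuronal genes the difference was 0.17 (exact two-sided permutation p = 0.143). With the letter sets as a block and G left out, it was 0.31 (SE 0.09, unadjusted p = 0.00606, adjusted p = 0.181, edgeR). Untreated cultures had 1270 CPM in A, 798 CPM in M and 694 CPM in P beside the 15.5 CPM of G. The untreated mean of 695 ± 518 CPM (SD, n = 4) became 922 ± 308 CPM in the 3 cultures without G, so that the order of the 3 conditions (untreated, low dose, high dose from the lowest) turned to low dose, untreated, high dose, at 801 ± 171 and 981 ± 125 CPM for the doses (SD, n = 4 each). No neighbours in either order differed beyond their spread.

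The 2 transporters were set against each other as the log2 ratio of their counts within a culture, a ratio from which the scaling of the library drops out. Slc17a7 to Slc17a6 was 6.30 in C, 6.46 in I, 6.56 in O and 6.60 in R at the high dose, and 5.65 in B, 5.03 in H, 4.83 in N and 4.85 in Q at the low dose. The means were 6.48 ± 0.13 and 5.09 ± 0.39 (SD, n = 4 each), with no overlap, and the ratio was higher at the high dose in every letter set, by 0.64, 1.44, 1.74 and 1.74. Untreated cultures had 6.04 in A, 3.44 in G, 6.29 in M and 4.91 in P, and a mean of 5.17 ± 1.30 (SD, n = 4), or 5.75 ± 0.73 in the 3 cultures without G. Untreated and low dose cultures overlapped with and without G, and the highest untreated culture (M) lay just below the lowest of the high dose (C). Since Slc17a6 itself differed between the doses, this ratio is a second view of the same counts and not a separate result.

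**Figure D3:**
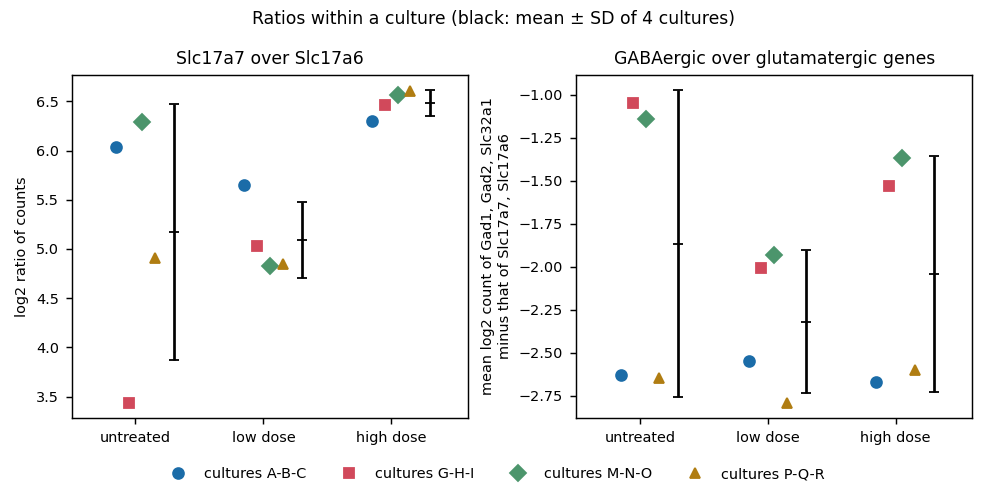
Log2 ratios of counts within a culture in untreated, low dose and high dose cultures, for Slc17a7 over Slc17a6 (left) and for the mean of Gad1, Gad2 and Slc32a1 over the mean of Slc17a7 and Slc17a6 (right), with one point per culture and the mean ± SD of 4 cultures in black. The left ratio is between 6.30 and 6.60 at the high dose and between 4.83 and 5.65 at the low dose, while the right ratio overlaps across the 3 conditions.

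Slc17a6 was also the gene of the 9 with the smallest p in low dose vs. untreated cultures, at a log2 fold change of 0.84 (SE 0.27, unadjusted p = 0.0108, adjusted p = 1, edgeR). Without culture G the log2 fold change was 0.41 (unadjusted p = 0.162, edgeR), and no longer passed an unadjusted p of 0.05. Within the letter sets it was higher at the low dose by 0.06, 3.51, 1.08 and 0.02 in the order of the sets. In 2 of the sets the low dose and untreated cultures were thus nearly at the same level. Of all genes tested, 4.06% were higher and 5.28% lower in all 4 sets in this comparison. For Slc17a6, the log2 fold change in high dose vs. untreated cultures was -0.25 (SE 0.27, unadjusted p = 0.386, edgeR), and -0.66 (unadjusted p = 0.0367, edgeR) without G.

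Gad1 and Gad2, which encode the enzymes of GABA synthesis, followed the letter sets and did not differ between the doses beyond the spread of all cultures of a dose. Gad1 was at 43.0 CPM in A, 79.1 CPM in M and 30.9 CPM in P, with 4.28 CPM in G. The low dose cultures had 40.9 CPM in B, 74.3 CPM in H, 62.1 CPM in N and 30.2 CPM in Q, and the high dose cultures 32.5 CPM in C, 62.9 CPM in I, 68.8 CPM in O and 25.3 CPM in R. At each dose the cultures of A-B-C and P-Q-R lay below those of M-N-O, and, at the 2 doses of fentanyl, below those of G-H-I. The dose means of Gad1 were 39.3 ± 31.1 (51.0 ± 25.1 in the 3 cultures without G), 51.9 ± 20 and 47.4 ± 21.7 CPM from untreated to high dose (SD, n = 4 each). Gad2 had means of 19.1 ± 11.8 (24.0 ± 7.80 without G), 21.8 ± 4.91 and 21.4 ± 8.0 CPM. The log2 fold changes between high and low dose cultures were -0.10 (SE 0.60) for Gad1 and -0.01 (SE 0.43) for Gad2. Gad1 alone of the 2 was lower at the high than at the low dose in 3 of 4 sets (-0.33, -0.24, 0.15 and -0.24). The log2 ratio of Gad1 to Gad2 counts was 0.02 in G and 0.58 to 1.59 in the other cultures.

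Slc32a1 and Dlx1, a vesicular transporter and a transcription factor of GABAergic neurons, were likewise higher in H, I and M-N-O than in A-B-C and P-Q-R, and did not differ between the doses beyond the spread of all cultures of a dose. Slc32a1 was at 15.9 CPM in A, 27.1 CPM in M and 16.5 CPM in P, beside the 0.649 CPM of G. At the low dose it was at 15.2 CPM in B, 29.4 CPM in H, 21.0 CPM in N and 13.8 CPM in Q, and at the high dose at 12.3 CPM in C, 26.0 CPM in I, 23.3 CPM in O and 14.9 CPM in R. The 3 conditions overlapped throughout, with means of 15 ± 10.9 (19.8 ± 6.31 without G), 19.9 ± 7.08 and 19.1 ± 6.57 CPM (SD, n = 4 each). Dlx1 was at 3.02 to 7.85 CPM outside G, or 42 to 127 counts. It had means of 3.77 ± 2.33 (4.79 ± 1.37 without G), 5.16 ± 1.95 and 4.56 ± 1.59 CPM. The log2 fold changes in high dose vs. low dose cultures were -0.03 (SE 0.56) for Slc32a1 and -0.15 (SE 0.45) for Dlx1.

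The balance of the GABAergic and glutamatergic genes was compared within cultures. The mean log2 count of Gad1, Gad2 and Slc32a1 minus that of Slc17a7 and Slc17a6 was -1.87 ± 0.89 in untreated (-2.14 ± 0.86 without G), -2.32 ± 0.42 at the low dose and -2.04 ± 0.69 at the high dose (SD, n = 4 each). The 3 conditions overlapped, and the high dose lay above the low dose in 3 of the 4 letter sets, the differences being -0.12, 0.48, 0.56 and 0.20 in their order. With Gad1 and Slc17a7 alone the direction was the opposite. The log2 ratio of Gad1 to Slc17a7 was -4.01 ± 0.64 at the low and -4.49 ± 0.80 at the high dose, lower at the high dose in each letter set, by a difference of -0.52, -0.42, -0.26 and -0.71, with both doses overlapping. The sign of the balance thus depended on which genes were taken.

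The interneuron genes Pvalb and Calb2 did not differ between the doses beyond the spread of all cultures of a dose. Pvalb was at 10.5 CPM in A, 10.9 CPM in B and 13.4 CPM in C, and at 23.3 to 40.9 CPM in the cultures of M-N-O, of P-Q-R and in H and I. Its means were 19.5 ± 11.3 (22.6 ± 11.7 without G), 24.7 ± 10.3 and 29.7 ± 11.6 CPM from untreated to high dose, an order in which no neighbours differed beyond their spread (SD, n = 4 each). High dose vs. untreated cultures had a log2 fold change of 0.54 (SE 0.49, unadjusted p = 0.298, edgeR), and 0.47 without G. Culture R, at 40.9 CPM, was the highest, and the high dose lay above the untreated culture in 3 of 4 sets (0.32, 1.58, -0.10 and 0.79). Calb2 was at 1.86 to 3.93 CPM over all cultures, or 27 to 63 counts, with means of 2.97 ± 0.481 (3.19 ± 0.273 without G), 2.77 ± 0.864 and 2.87 ± 0.833 CPM and log2 fold changes of -0.13 and -0.08 against untreated cultures (-0.22 and -0.17 without G) and 0.05 between the doses.

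Outside culture G, Reln had the widest range of the 9 genes as a fold between the lowest and the highest culture, most of it between letter sets. It was at 12.7 CPM in A, 443 CPM in G, 64.6 CPM in M and 138 CPM in P among the untreated cultures. The low dose cultures had 11.6 CPM in B, 39.3 CPM in H, 53.3 CPM in N and 110 CPM in Q, and the high dose cultures 14.9 CPM in C, 57.5 CPM in I, 71.0 CPM in O and 150 CPM in R. At each fentanyl dose the same order of letter sets stood, from A-B-C as the lowest to P-Q-R as the highest. Within the sets Reln was higher at the high than at the low dose by 0.34, 0.54, 0.41 and 0.45 on the log2 scale, and lower at the low dose than untreated by a difference of -0.12, -3.46, -0.27 and -0.33. Of all genes tested, 11.7% were higher in all 4 sets in the first comparison and 5.28% lower in all 4 in the second. The log2 fold change in high dose vs. low dose cultures was 0.44 (SE 0.88, unadjusted p = 0.625, adjusted p = 1, edgeR). With the letter sets as a block and G left out it was 0.45 (SE 0.06), and the adjusted p over all genes was 0.0197 (edgeR), at a log2 fold change under the threshold of 0.5. For low dose vs. untreated cultures, the log2 fold change of -0.72 (SE 0.93) became -0.04 without G. Of the markers of Cajal-Retzius cells, Lhx1 and Lhx5 had 1 count at most in any culture and Nhlh2 had 8 counts at most, while Tp73 was at 0.166 to 3.31 CPM and highest in G.

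**Figure D4:**
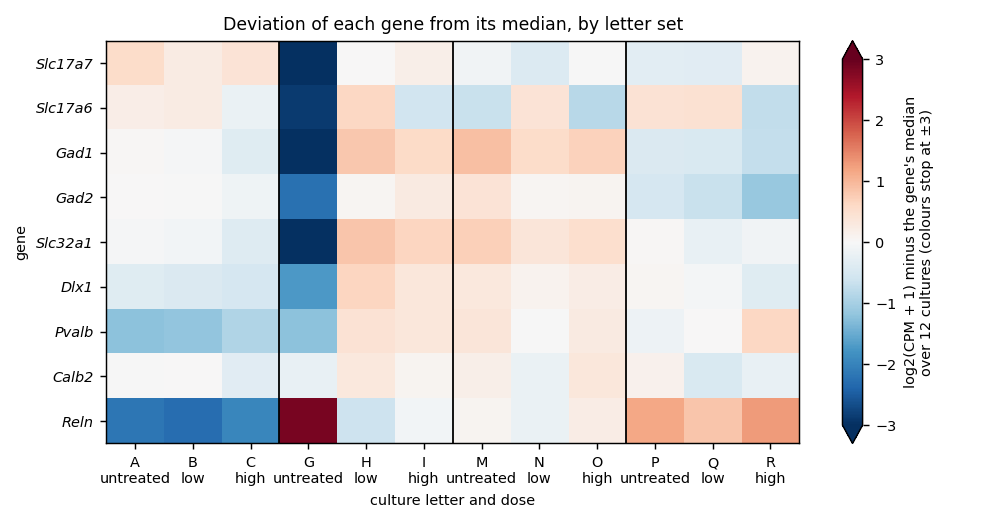
Log2(CPM + 1) of each gene minus its median over the 12 cultures, as colours (limits at ±3), with cultures in columns by letter set. Culture G is dark blue for Slc17a7, Slc17a6, Gad1 and Slc32a1 and dark red for Reln, Reln is low in A, B and C and high in P, Q and R, and Gad1 and Slc32a1 are higher in H, I, M, N and O than in P, Q and R.

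The share of the variance of log2(CPM + 1) that lay between letter sets and between doses was computed over the 11 cultures without G. For Reln the letter sets held 97.6% and the doses 2.24%. Gad1 (93.4% and 1.68%), Slc32a1 (89.8% and 0.569%), Pvalb (89.3% and 7.15%), Dlx1 (87.7% and 2.86%) and Gad2 (84.4% and 3.32%) were alike in this. Slc17a7 had 70.4% between letter sets and 19.5% between doses, and Calb2 had 37.2% and 8.41%. Slc17a6 was the exception among the 9, with 12.5% between letter sets and 67.7% between doses. Over all genes tested the medians were 75.3% and 7.96%. Over all 12 cultures, G included, the letter sets held less for each of the 9 genes but Slc17a6. Slc17a6 then had 19.7% between letter sets and 31.1% between doses. It was still the only gene of the 9 with more between doses. Gad1 had 25.2% between letter sets and 12.8% between doses, and Slc32a1 had 15.1% and 14.7%. Reln kept 72.4% and Pvalb 59.9% between letter sets. These shares are descriptions of 11 or 12 cultures, and no test was made of them.

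Seen over all 9 genes, 0 were called in any of the 3 comparisons, which set the low and the high dose against untreated cultures and the high against the low dose, beside 0 of all 12271 genes tested (0%) in each comparison (edgeR). DESeq2 called 0, 3 and 1 genes in this order, none of the 9. At an unadjusted p under 0.05, 1, 0 and 1 of the 9 genes passed in edgeR, each time Slc17a6, beside 0.742%, 1.19% and 1.17% of all genes. With the letter sets as a block and G left out, these counts were 1, 5 and 3, beside 7.54%, 9.43% and 13.6% of 12337 genes. Reln was the 1 gene in low dose vs. untreated cultures. Slc17a6, Gad1 (-0.31, unadjusted p = 0.00777), Gad2 (-0.32, unadjusted p = 0.0350), Slc32a1 (-0.26, unadjusted p = 0.0329) and Reln were the 5 in high dose vs. untreated cultures, and Slc17a7, Slc17a6 and Reln the 3 between the doses (edgeR). The median log2 fold change of the 9 genes was 0.40, 0.26 and -0.01, beside 0.01, 0.00 and -0.01 over all genes, and the standard errors were 0.27 to 0.93. The values against untreated cultures turned on G. For Slc17a7, Gad1, Gad2, Slc32a1 and Dlx1, the log2 fold changes were 0.15 to 0.48 in low dose vs. untreated and -0.20 to 0.13 without G, and 0.14 to 0.71 in high dose vs. untreated and -0.27 to 0.08 without G. For low dose vs. untreated cultures, 0 of 9 genes had CPM without overlap (0.407% of all genes) and 0 of 9 a level relative to the pan-neuronal genes without overlap (0.0652%). In high dose vs. untreated cultures these were 0 of 9 (0.685%) and 0 of 9 (1.70%) as well, and 0 of 9 genes were higher (5.22% of all genes) or lower (5.22%) in all 4 letter sets. High dose vs. low dose cultures had 1 of 9 genes without overlap on both scales, Slc17a6 (1.19% and 2.53% of all genes). Slc17a6 was also the 1 gene of 9 lower in all 4 sets (11.1% of all genes), while Slc17a7 and Reln were higher in all 4 (11.7%). In low dose vs. untreated cultures, Slc17a6 was the 1 gene higher in all 4 sets (4.06% of all genes) and Reln the 1 gene lower (5.28%).

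**Figure D5:**
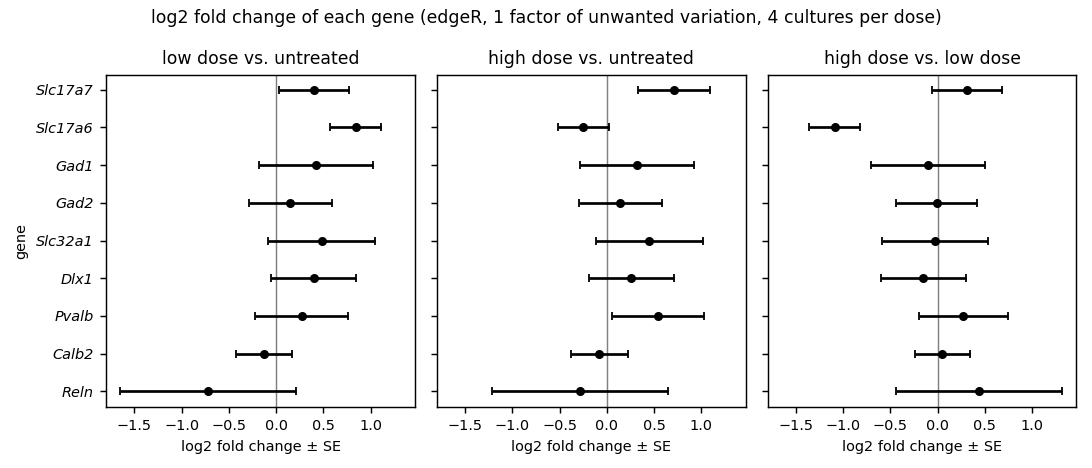
Log2 fold change ± SE of each gene in the 3 comparisons (edgeR with 1 factor of unwanted variation, 4 cultures per dose). In the right panel Slc17a6 (-1.09 ± 0.27) lies away from 0, and the other 8 genes lie within 1 SE of 0.

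Other genes of the same neurons were taken from fixed lists. Of 14 glutamatergic neuron genes, 12 were tested, and none was called or reached an unadjusted p under 0.05 in any comparison of the fit of all cultures. In high dose vs. low dose cultures 10 of 12 had log2 fold changes above 0 with a median of 0.33, the opposite sign to Slc17a6. Examples are Camk2a, a synaptic kinase (0.51, SE 0.64), Neurod1, a transcription factor of differentiating neurons (0.74, SE 0.41), and Tbr1, a transcription factor of deep-layer projection neurons (0.50, SE 0.47). Fezf2, a transcription factor of subcortically projecting neurons, was among the 2 below 0 (-0.53, SE 0.60). Slc17a8, the gene of the remaining vesicular glutamate transporter VGLUT3, had 9 counts at most in any culture and was not tested.

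Of 20 GABAergic neuron genes, 19 were tested, and again none was called or reached an unadjusted p under 0.05 in that fit. In high dose vs. low dose cultures 12 of 19 were above 0 with a median of 0.16. Lhx6, a transcription factor of interneurons from the medial ganglionic eminence, had the smallest p of the list between the doses, with a log2 fold change of 0.80 (SE 0.40, unadjusted p = 0.0703, edgeR), from 24 counts at most. Markers of interneuron classes also differed by letter set. Lamp5, a marker of neurogliaform interneurons, was at 18.7 to 21.9 CPM in A, B and C, and at 126 CPM or more in H, I, M, N and O. Vip, the peptide of a further class, was at 11.9 CPM or more in these 5 cultures and at 1.24 to 1.66 CPM in P, Q and R. Sst, the gene of somatostatin, was highest in A-B-C, with 19.0 CPM in A, 16.7 CPM in B and 15.6 CPM in C against 1.10 to 10.8 CPM elsewhere.

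The genes with the most similar levels over the 12 cultures were found for each of the 9 by Spearman's correlation of CPM, as a description in which the 12 points share letter sets. Slc17a6 was most like Galt, which encodes an enzyme of galactose metabolism (rho = 0.94, and 0.92 in the 11 cultures without G), followed by Pam, a peptide-amidating enzyme, and Ociad2 (0.92 each). For Slc17a7 the nearest genes were Rnf112, Snap91 and Slit1 (0.99 each), of which Snap91 encodes a clathrin assembly protein of synapses. Gad1 and Gad2 shared their nearest gene, Mast3 (0.98 and 0.95), and correlated with each other at 0.95. Slc32a1 lay closest to Tmem68 (0.97), Dlx1 to Ubl7 (0.99), Pvalb to St8sia5 (0.97), Calb2 to Unc13c (0.91) and Reln to Cdyl (1 after rounding). Within the 9 genes, Slc32a1 and Dlx1 had a rho of 0.93 and Gad1 and Slc32a1 of 0.90, whereas Slc17a7 and Slc17a6 had 0.00. Reln followed the score of 5 OPC markers (rho = 0.98, and 0.97 without G), which was 4.81 to 5.42 in A, B and C and 6.43 to 7.12 in the other 9 cultures, and the part of these cells in the level of Reln was not tested.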

How the data were processed

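RNA of 12 cultures was extracted on spin columns by the authors, poly(A)-selected and prepared with an unstranded TruSeq kit (v2), so reads of genes on opposite strands cannot be told apart. Reads were aligned to rn6 with STAR and counted per gene with featureCounts by the authors, and the deposited values are these raw counts, with no normalization. In RefSeq (assembly GRCr8, used for names only, since the build differs), Dlx1 and Reln overlap other genes, none of which the count table lists.

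In R 4.3.3, counts were scaled by TMM and filtered by filterByExpr (edgeR 4.0.16). Of 17337 genes, 2226 had no count and 12271 were tested. The authors' methods name RUVseq and edgeR without procedure or number of factors, so 1 RUVs factor was estimated from the replicates of each dose, with the formula rewritten in R and all kept genes as controls. Dose and this factor were fitted to all 12 cultures with the quasi-likelihood test, with Benjamini-Hochberg adjustment over all genes, and a call needed an adjusted p below 0.05 with a change of more than 0.5 on the log2 scale, the authors' thresholds. The factor was 0.65 in culture G and -0.50 to -0.13 in the other cultures, so that the fold changes of this fit are in part adjusted for G. Standard errors were derived from the quasi-likelihood statistics. The fit was also run on simulated counts with genes changed at the high dose. These counts held no letter sets and no culture like G, so that the run does not show how the fit behaves with them. Levels relative to pan-neuronal genes, on log2(CPM + 1), were tested by exact two-sided permutation of the doses over 70 arrangements of 4 against 4 cultures.

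Genes, lists and tests were chosen with earlier results of these data known. Named genes were the 9 genes, the 3 genes with the most similar levels to each, and genes of the fixed lists. The ratios of Gad1 to Slc17a7 and the examples from the lists were picked after their values had been seen. Alternatives were no factor, 2 RUVs factors, a block by letter set with and without culture G, DESeq2 1.42.0, its size factors in edgeR, no filter on low counts, each culture left out in turn, and, for levels relative to pan-neuronal genes, their median or an offset of 0.1. Counts of 3 or fewer were taken as the floor, which covers counting error only. Recordings, viability and imaging hold no gene counts and were not used here.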

Additional observations from a re-analysis of the deposited data

Results flagged for a closer look

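Of 69 groups of 4 cultures in which the lowest and the highest value were compared with the rest by Dixon's ratio, 3 held a culture that stood apart, and chance would give about 1 in 20. Gad2 in low dose culture Q was 14.5 CPM, below the 3 other low dose cultures (23.2 to 24.9 CPM), and its letter set P-Q-R had the lowest Gad2 level at each dose outside culture G. The level of Slc17a7 relative to the pan-neuronal genes was -0.65 in untreated culture G, against 1.64 to 2.10 in the other untreated cultures. Culture G was thus lower in Slc17a7 than in the mean of the 14 pan-neuronal genes, which did not fall alike in G. Relative to the median of the other cultures, G was at 0.0179 for Slc17a7, and at 0.0174 for Rbfox3 and 0.0178 for Nefl. Gap43 (0.731) and Elavl3 (0.381), of the same 14 genes, fell less. The level of Pvalb relative to the pan-neuronal genes was -4.54 in low dose culture B, the other low dose cultures being at -3.06 to -2.92, and A and C, of the same letter set, were at -4.69 and -4.28. No explanation of these values was tested.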

How the results depend on the processing

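None of the 9 genes was called under any alternative. Slc17a6 in high dose vs. low dose kept its sign throughout, with a log2 fold change of -1.11 to -1.06 under 7 other settings and -1.18 to -0.88 with 1 culture left out, and its smallest adjusted p was 0.0876 (edgeR, block by letter set without culture G). The genes called at the high dose, against untreated and against low dose cultures in this order, were 0 and 0 as reported, 1 and 1 with 2 RUVs factors, 15 and 14 with the block without G, and 3 and 1 with DESeq2, and the cause was not tested. Neither the labels nor the methods name the letter sets as pairs. With the replicate block by letter set and all cultures, no gene was called. With the block and G left out, the log2 fold change changed sign in low dose vs. untreated for Slc17a7 (-0.20), Gad1 (-0.14), Gad2 (-0.24), Slc32a1 (-0.20), Dlx1 (-0.12) and Pvalb (-0.01), and in high dose vs. untreated for Gad1 (-0.31), Gad2 (-0.32), Slc32a1 (-0.26), Dlx1 (-0.30) and Reln (0.17). With 2 RUVs factors, Reln was at 0.21 in high dose vs. untreated. With 1 culture left out, several log2 fold changes that lay within their error changed sign. In low dose vs. untreated the ranges were -0.20 to 0.98 for Slc17a7, -0.02 to 1.13 for Gad1, -0.20 to 0.58 for Gad2, -0.33 to 0.01 for Calb2 and -1.69 to 0.36 for Reln. For high dose vs. untreated they were -0.66 to 0.17 for Slc17a6, -0.17 to 1.03 for Gad1, -0.27 to 0.57 for Gad2, -0.06 to 1.14 for Slc32a1, -0.04 to 0.67 for Dlx1, -0.31 to 0.05 for Calb2 and -1.24 to 0.83 for Reln. For high dose vs. low dose they were -0.48 to 0.22 for Gad1, -0.19 to 0.24 for Gad2, -0.32 to 0.29 for Slc32a1, -0.36 to 0.09 for Dlx1, -0.15 to 0.26 for Calb2 and -0.35 to 1.24 for Reln. Standard errors were 0.27 to 0.93 in the fit of all cultures and 0.06 to 0.26 with the block without G. They were 0.28 to 0.90 with the block and all cultures, and 0.15 to 0.43 without G and without the block. The size of difference that could be resolved thus depended on whether G was left out, and not on the block alone.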
